A study of Mus musculus with 3 samples.

Results

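The intermediate filament genes of the established mouse fibroblast line NIH3T3 were described from UMI-RNAseq. The members are the 50 keratin genes whose symbol is Krt followed by digits alone, and 13 further genes, namely Vim, Nes, Gfap, Prph, Ina, Nefl, Nefm, Nefh, Sync, Synm, Lmna, Lmnb1 and Lmnb2. Together they make 63 of the 55573 genes listed. The dataset holds 3 libraries of 1 condition, untreated cells grown in DMEM with serum, which are named library 1, library 2 and library 3 after their replicate numbers. No group of samples could therefore be compared with another. Whether each library had its own culture is not given in the sources used here, so the SD over them may be technical.

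The authors deposited FPKM values, in which the fragments of a gene are divided by its length in kilobases and by the library total in units of 1000000. Counted fragments were those left after PCR copies with the same molecular tag (UMI) had been removed. Libraries 1, 2 and 3 rested on 14423209, 13959723 and 14307241 counted fragments, as recovered from the steps between FPKM values. The labels name the cells as NIH3T3 but mention retina in their extraction text. Of 8 fibroblast markers, 7 had a mean FPKM of at least 1, led by Fn1, which encodes fibronectin, at 4377 ± 86.1 FPKM (SD, n = 3). Of 12 neural and retinal markers, 1 did so, the tubulin gene Tubb3 at 5.46 ± 0.591 FPKM (SD, n = 3).

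Intermediate filaments are rope-like polymers of coiled-coil proteins, and each tissue builds them from its own set of genes. Epithelia pair an acidic type I keratin with a basic type II keratin, mesenchymal cells use vimentin, and neurons use neurofilament proteins, alpha-internexin and peripherin. Astrocytes make glial fibrillary acidic protein, and neural progenitors make nestin. Lamins form a meshwork under the nuclear envelope of nearly all cells.

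Mesenchymal and lamina genes made up nearly all of the filament signal. The summed FPKM of each group fell in the order Vim, lamina, keratins, neural filaments, and Sync with Synm, in each of the 3 libraries. Vim alone took 73.0% ± 0.184 (SD, n = 3) of the summed FPKM of the members. The 3 lamin genes took 25.5% ± 0.181, the 50 keratins 1.096% ± 0.0375 and the 7 neural filament genes 0.360% ± 0.0208 (SD, n = 3 each). The 63 members together held 0.296% of the FPKM of all genes.

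**Figure D1:**
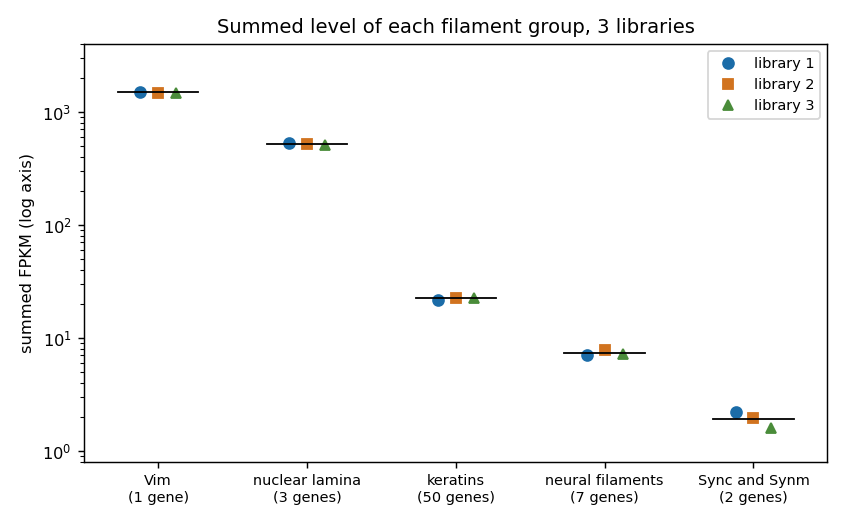
Summed FPKM of each filament group (log axis) in the 3 libraries, with the mean as a horizontal line. The groups do not overlap, and the sums lie between 1476 and 1504 FPKM for Vim and between 7.01 and 7.78 FPKM for the neural filaments.

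Vim plus the lamins summed to 70.7, 65.8 and 66.6 times the keratins plus neural filaments in libraries 1, 2 and 3. The mean log2 ratio was 6.08 ± 0.06 (SD, n = 3), so the gap was far larger than the spread between libraries. The FPKM rest on the mean length of the annotated isoforms of each gene. With the longest isoform in its place, which was tried once the values were known, the log2 ratio was 5.55.

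Of the 63 members, 11 had a mean FPKM of at least 1, which is 17.5% of them. The same limit was passed by 23.2% of all genes listed and by 49.3% of the protein-coding genes of the GENCODE M21 annotation. At least 1 fragment was counted for 30 members, or for 18 of the 50 keratins, against 47.1% of all genes. The member just above an FPKM of 1 was Krt86, at a mean of 1.12, and the one just below it was Synm, at 0.717.

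**Figure D2:**
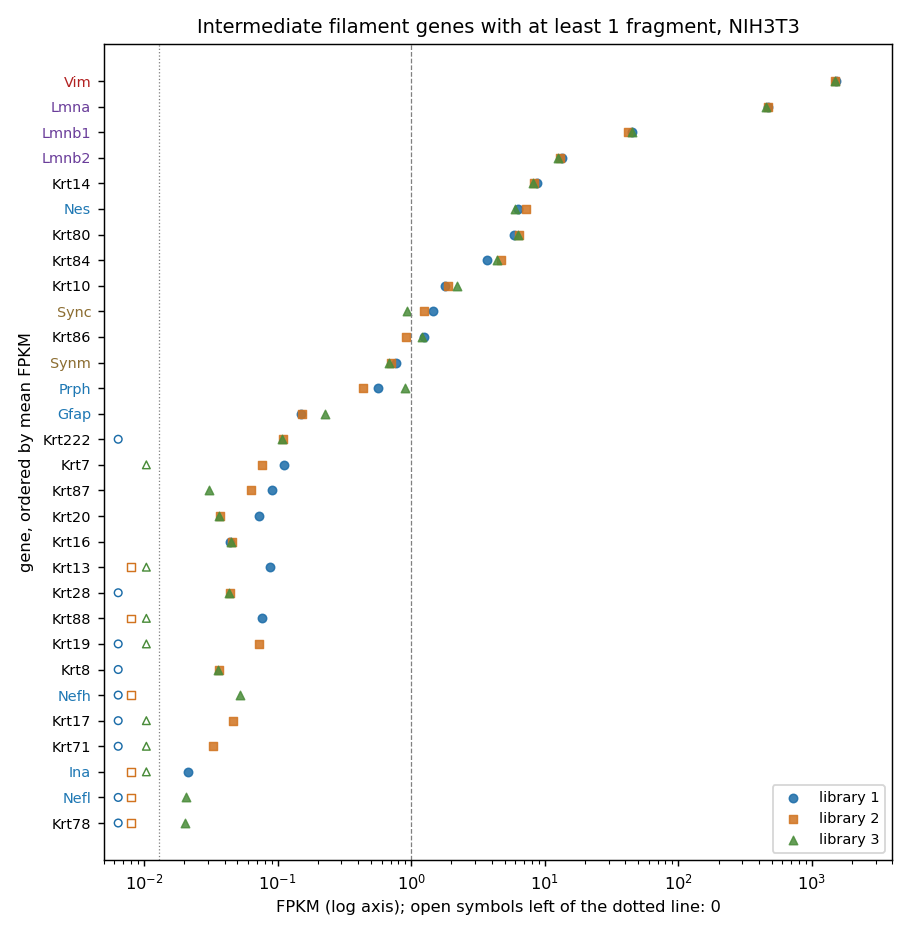
FPKM (log axis) in each of the 3 libraries of the 30 members with at least 1 fragment in all. Gene names are red for Vim, purple for lamins, blue for neural filaments, brown for Sync and Synm and black for keratins, and open symbols stand for 0. The 4 highest genes are Vim and the lamins, and 19 genes have a mean left of the dashed line at an FPKM of 1.

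Vim (ENSMUSG00000026728) encodes vimentin, the filament protein of mesenchymal cells. In GENCODE M21 on GRCm38 it spans 13573927 to 13582826 of chromosome 2 (plus strand). In library order its FPKM was 1504, 1486 and 1476, and the mean was 1489 ± 14.0 (SD, n = 3). By mean FPKM it ranked 26 of the 12905 genes that reached 1 FPKM. Its level rested on 32299, 30880 and 31454 fragments, and it shared no 75-nt word with a transcript of another gene. The plakins link such filaments to other parts of the cell. Among 6 plakin and linker genes, Dst and Plec were the highest, at 183.5 ± 6.82 and 154.3 ± 2.34 FPKM (SD, n = 3). Evpl, a plakin of stratified epithelia, was the lowest, at 0.0403 ± 0.0125 FPKM (SD, n = 3).

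Lmna (ENSMUSG00000028063) encodes the A-type lamins, lamin A and lamin C. The gene spans 88480147 to 88509956 of chromosome 3 (minus strand). Libraries 1 to 3 gave 468.5, 466.8 and 451.7 FPKM, with a mean of 462.3 ± 9.25 (SD, n = 3) and rank 177. The values are per gene, so lamin A and lamin C cannot be told apart. Vim was 3.21, 3.18 and 3.27 times as high as Lmna in the 3 libraries, with a log2 ratio of 1.69 ± 0.02 (SD, n = 3).

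Lmnb1 (ENSMUSG00000024590), which encodes a B-type lamin that stays bound to the nuclear membrane through its farnesyl group, spans 56707813 to 56753424 of chromosome 18 (plus strand). It had 44.9, 41.9 and 45.1 FPKM, with a mean of 44.0 ± 1.79 (SD, n = 3). Lmnb2 (ENSMUSG00000062075), the other B-type lamin gene, spans 80901203 to 80918245 of chromosome 10 (minus strand). Its values were 13.4, 13.1 and 12.6 FPKM, with a mean of 13.04 ± 0.396 (SD, n = 3). The 3 lamin genes kept the same order in each library, and their values did not overlap. Lmna lay above Lmnb1 by a log2 ratio of 3.39 ± 0.08 and Lmnb1 above Lmnb2 by 1.75 ± 0.08 (SD, n = 3 each). Against both B-type genes together, Lmna was 8.11-fold ± 0.341 (SD, n = 3) higher. The signs of the 3 log2 ratios were flipped for Vim to Lmna, Lmna to Lmnb1 and Lmnb1 to Lmnb2. The same was done for Vim plus the lamins to the keratins plus neural filaments. This exact permutation test (two-sided) gave p = 0.25 for each of these 4 ratios, also after Benjamini-Hochberg adjustment over the 4. With 3 libraries no smaller p is possible, and a threshold of 0.05 is out of reach.

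Transcripts for proteins that bind or modify lamins were detected for each gene of both lists. Of 12 lamina partner genes, 12 reached a mean of 1 FPKM, and their median was 52.7 FPKM. The highest was Sun1 at 120.8 ± 0.738 FPKM (SD, n = 3), whose protein joins the lamina to the cytoskeleton across the nuclear envelope. The lowest was Lemd3, an inner nuclear membrane protein, at 8.71 ± 0.528 FPKM (SD, n = 3). The 5 genes for lamin processing had a median of 31.7 FPKM. They ranged from Icmt, which methylates the farnesylated end, at 23.4 ± 1.15 FPKM to Fnta, a subunit of farnesyltransferase, at 41.2 ± 3.71 FPKM (SD, n = 3 each). Zmpste24, the protease that cuts prelamin A, had 32.0 ± 1.06 FPKM (SD, n = 3).

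Most keratins were near or at 0. Of the 50 keratins, 5 had a mean FPKM of at least 1, or 10.0%, and these 5 held 98.0% of the summed keratin FPKM. A further 13 had between 1 and 6 fragments in all libraries together, 34 fragments in total. The remaining 32 had 0 fragments in all libraries. Among all genes listed, 23.2% had a mean FPKM of at least 1 and 47.1% had at least 1 fragment. Among the protein-coding genes of GENCODE M21, 49.3% had a mean FPKM of at least 1. For a count of 0 over the 3 libraries, a fixed limit of 3 fragments was set in place of an exact interval. It corresponds to between 0.0215 and 0.0589 FPKM depending on the length of the gene. Such limits and the intervals given here cover counting error only.

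Krt14 (ENSMUSG00000045545), the type I keratin of the basal layer of stratified epithelia, was the highest keratin. In library order it had 8.70, 8.33 and 8.13 FPKM from 177, 164 and 164 fragments, and its mean was 8.39 ± 0.291 FPKM (SD, n = 3). Its type II partner Krt5 had 0 fragments. Krt14 took 37.6% ± 2.21 (SD, n = 3) of the keratin sum. It shared 5.71% of its words with Krt16, which had 1 fragment in each library and shared 28.9% of its own words with other genes.

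Krt80 (ENSMUSG00000037185), a type II keratin found in many epithelia, had 5.85, 6.35 and 6.34 FPKM, with a mean of 6.18 ± 0.288 (SD, n = 3). It lay below Krt14 in each library, by a factor of 1.49, 1.31 and 1.28. Before division by gene length the order was the other way, with 213, 224 and 229 fragments for Krt80. The annotation of Krt80 overlaps that of Gm35853, on the opposite strand, over 4.11% of its exonic bases.

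Krt84 (ENSMUSG00000044294), a type II keratin of the hair shaft and tongue, had 3.66, 4.69 and 4.39 FPKM, with a mean of 4.25 ± 0.530 (SD, n = 3). Krt80 lay above it by a factor of 1.597, 1.35 and 1.44 in the 3 libraries. No 75-nt word of Krt84 occurred in another gene. Krt10 (ENSMUSG00000019761), the type I keratin of the suprabasal epidermis, had 1.78, 1.89 and 2.21 FPKM, with a mean of 1.96 ± 0.226 (SD, n = 3). Its type II partner in the epidermis, Krt1, had 0 fragments.

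Krt86 (ENSMUSG00000067614), another type II hair keratin, had 1.24, 0.912 and 1.21 FPKM, with a mean of 1.12 ± 0.180 (SD, n = 3). Its value is uncertain, because 33.5% of its words also occur in other genes, mainly in Krt81 (28.4%) and Krt83 (9.42%). Both Krt81 and Krt83 had 0 fragments. The 3 keratins Krt14, Krt80 and Krt84 lay above Krt10 and Krt86 in each library, without overlap.

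The keratins of simple epithelia, which line ducts and glands, were close to 0. Krt8 had 0 fragments in library 1 and 1 in each of the other libraries, or 0.0241 FPKM on average with an exact Clopper-Pearson 95% interval from 0.00290 to 0.0864 FPKM. Its value is uncertain, because 23.5% of its words also occur in other genes, mainly in the pseudogene Krt8-ps (21.97%), which was itself at 0.0744 FPKM on average. Its partner Krt18 had 0 fragments in all libraries, which allows up to 0.0489 FPKM by the fixed limit of 3 fragments. That limit and the interval of Krt8 are not the same measure. No ratio of Krt18 to Krt8 was formed, since both lie at or under 3 fragments. Krt7 had 3, 2 and 0 fragments and a mean of 0.0627 FPKM. Krt20 had 2, 1 and 1 fragments, and Krt19 had 1 fragment, in library 2. The 5 simple epithelial keratins together had 12 fragments.

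By place of expression, 2 of 13 keratins of stratified epithelia passed an FPKM of 1, as did 2 of 12 keratins of the hair shaft. None of the 9 keratins of the hair root sheath or the 5 of simple epithelia passed. Of the 11 other keratins 1 passed, namely Krt80. The share among all genes listed was 23.2%, and sets this small say little about a place of expression. Among the 26 type I keratins 2 passed, and among the 24 type II keratins 3 passed. The type I keratins summed to 10.6 ± 0.0627 FPKM and the type II keratins to 11.7 ± 0.623 FPKM (SD, n = 3 each). The type II sum was the higher one in 3 of 3 libraries, with 11.02 against 10.7, 12.2 against 10.6 and 12.03 against 10.6 FPKM. This order depends on the isoform length used and on Krt86. The log2 ratio of type II to type I was 0.14 ± 0.09 (SD, n = 3), but -0.12 with the longest isoform and -0.0017 without Krt86, both of which were tried once the values were known. With fragments not divided by gene length, also added later, it was 0.72 ± 0.08 (SD, n = 3), in the same direction.

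Keratin genes sit in a pair of clusters. On chromosome 11, 25 type I keratins lie between 99232761 and 100269871 of GRCm38. On chromosome 15, the 24 type II keratins and Krt18 lie between 101347444 and 102032027. Among them, Krt74 is annotated in GENCODE M21 as a transcribed unitary pseudogene and is left out of the protein-coding genes counted next. In the first stretch, 2 of 68 annotated protein-coding genes passed a mean FPKM of 1, namely Krt10 and Krt14. In the second, 3 of 29 did, namely Krt80, Krt86 and Krt84. Among all protein-coding genes of GENCODE M21, 49.3% passed the same limit. The genes that passed were keratins in each stretch. As the stretches were bounded by the outermost keratins and the second holds few other genes, this was nearly fixed there. The keratin-associated protein genes between the type I keratins did not pass. Krt80 is the outermost gene of its cluster, and Krt86 and Krt84 are 6th and 9th in order. Krt10 and Krt14 stand 7th and 65th on chromosome 11, with Krt19 and Krt9 on the near side of Krt14, and Krt16 and Krt17 on its far side. Krt19 and Krt17 had 1 fragment each, and Krt9 had 0.

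**Figure D3:**
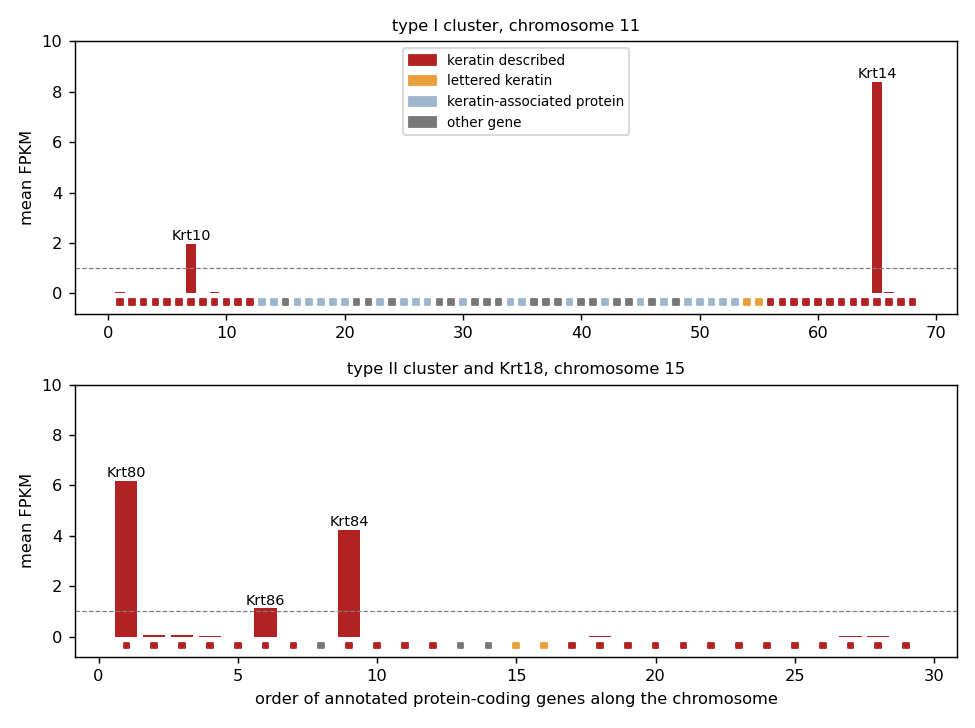
Mean FPKM over 3 libraries (bars) of the annotated protein-coding genes in the keratin stretches of chromosomes 11 and 15, in their order along the chromosome. Squares mark each gene by kind, and the dashed line is an FPKM of 1. Bars above that line stand only at Krt10 and Krt14 on chromosome 11 and at Krt80, Krt86 and Krt84 on chromosome 15.

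The regions before the gene starts were read for sequence features. RefSeq windows on GRCm38.p6, taken here as the 250 bases before the gene start that RefSeq gives, were found for 44 of the 63 members, and the first window of a gene was used. The RefSeq start was the outermost start of the gene in GENCODE M21 for 22 of the 44 and lay within 100 bases of it for 38. For Vim it lay 384 bases inside the GENCODE span given above, for Krt14 1518 bases and for Lmna 6604 bases inside, so these windows lie within the annotated genes. The motif TATAAA, the core of the TATA box, occurred on either strand in 18 of these 44 windows, or 40.9%, against 12.2% of the 20706 listed genes with a window, counted in the same way. On the strand of the gene, the match nearest the RefSeq start began between 20 and 40 bases before it in 15 of 44 member windows (34.1%). It did so for 2.53% of all listed genes with a window and for 3.68% of those with a mean FPKM below 1. These 15 genes were Vim, Prph and 13 of the 35 keratins with a window. Among the 25 keratins with a window and 0 fragments, 9 held it at that distance. A match describes the letters in the window and not a site in use. Keratins are genes of 1 family that lie side by side in a pair of clusters, so their windows may not be independent. The difference between these percentages was not tested. The windows of Vim, Krt10, Krt25 and Krt31 are shown 5′ to 3′ on the strand of the gene, with TATAAA in capitals, because they hold the motif at like distances while their levels differ from 1489 FPKM to 0. Krt25 is a keratin of the hair root sheath and Krt31 one of the hair shaft.
Vim, chr2:13574061-13574310, plus strand, motif 32 bases before the RefSeq start: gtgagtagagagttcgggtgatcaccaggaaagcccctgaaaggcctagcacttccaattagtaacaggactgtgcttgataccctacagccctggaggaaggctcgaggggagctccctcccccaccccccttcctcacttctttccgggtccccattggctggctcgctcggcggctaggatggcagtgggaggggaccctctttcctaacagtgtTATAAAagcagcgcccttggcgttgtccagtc
Krt10, chr11:99389365-99389614, minus strand, motif 26 bases before the RefSeq start: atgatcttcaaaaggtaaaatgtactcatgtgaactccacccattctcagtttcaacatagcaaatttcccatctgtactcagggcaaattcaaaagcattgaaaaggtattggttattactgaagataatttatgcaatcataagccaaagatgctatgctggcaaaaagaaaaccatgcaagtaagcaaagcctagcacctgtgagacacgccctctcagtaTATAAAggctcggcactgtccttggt
Krt25, chr11:99322952-99323201, minus strand, motif 30 bases before the RefSeq start: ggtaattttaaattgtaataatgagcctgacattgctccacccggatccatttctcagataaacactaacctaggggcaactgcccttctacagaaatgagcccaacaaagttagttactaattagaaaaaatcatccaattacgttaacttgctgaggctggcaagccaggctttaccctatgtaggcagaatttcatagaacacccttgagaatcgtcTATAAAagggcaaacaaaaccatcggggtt
Krt31, chr11:100050552-100050801, minus strand, motif 29 bases before the RefSeq start: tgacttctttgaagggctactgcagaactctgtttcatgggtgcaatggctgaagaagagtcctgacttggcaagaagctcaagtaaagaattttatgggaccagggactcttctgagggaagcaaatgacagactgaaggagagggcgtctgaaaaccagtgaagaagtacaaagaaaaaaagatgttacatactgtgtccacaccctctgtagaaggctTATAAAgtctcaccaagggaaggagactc

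The same windows differed in base composition between keratins and other members. The ratio of observed to expected CpG dinucleotides reached 0.6 in 1 of 35 keratin windows and in 5 of 9 windows of the other members. Among all listed genes with a window it did so for 41.0%, among those with a mean FPKM below 1, as 32 of the 35 keratins had, for 17.98%, and among those with at least 1 for 70.8%. Of the keratins that passed an FPKM of 1, Krt14, Krt84 and Krt10 had a window, and their ratios were 0.325, 0.214 and 0.206. Vim, the most abundant member, had 0.376. The counts depend on the limit and on the windows. Krt28 was the keratin that reached it, at 0.658, and Krt7 and Krt39 lay just under it, at 0.596 and 0.594. Lmna and Gfap, at 0.052 and 0.104, had windows 6604 and 3712 bases inside the annotated gene. Those of Krt14, Krt7 and Vim lay 1518, 1360 and 384 bases inside.

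Among the neural filament genes, Nes was the only one with a mean FPKM of at least 1. Nes (ENSMUSG00000004891) encodes nestin, a long filament protein that co-assembles with vimentin and is known from neural progenitors. In library order it had 6.27, 7.19 and 6.01 FPKM, and its mean was 6.49 ± 0.618 FPKM (SD, n = 3). Library 2 was the highest. At the mean isoform length, the level of Nes could not be set apart from that of Krt80, since Krt80 was at 0.932, 0.884 and 1.05 times Nes. This depends on the length used. With the longest isoform, added later, Nes had a mean of 4.73 FPKM and Krt80 3.98. Before division by gene length, Nes had 404, 448 and 384 fragments against 213, 224 and 229 for Krt80. Vim lay above Nes by a factor of 230.7 ± 20.98 (SD, n = 3).

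Prph (ENSMUSG00000023484), which encodes peripherin of peripheral neurons, had 0.566, 0.439 and 0.903 FPKM, from 12, 9 and 19 fragments. Gfap (ENSMUSG00000020932) had 0.148, 0.153 and 0.225 FPKM from 4, 4 and 6 fragments. The neurofilament triplet, the main filaments of axons, was at or near 0. Nefh had 3 fragments, all in library 3, Nefl had 1 in the same library, and Nefm had 0, which allows up to 0.0200 FPKM. Ina, the gene of alpha-internexin, had 1 fragment, in library 1. Nefl and Nefm overlap on opposite strands over 1108 nt, and Ina overlaps Nt5c2 over 456 nt. The sources used here do not state whether strand was used in counting.

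Sync and Synm encode syncoilin and synemin, filament proteins best known from muscle. Sync (ENSMUSG00000001333) had 1.46, 1.245 and 0.927 FPKM, with a mean of 1.21 ± 0.268 (SD, n = 3). Its values overlapped those of Krt86. On the opposite strand, Rbbp4 overlaps 27.3% of the exonic bases of Sync, and Rbbp4 had 107.9 FPKM on average. Without knowledge of strand, reads of these genes cannot be told apart there. Synm (ENSMUSG00000030554) had 0.767, 0.707 and 0.676 FPKM, with a mean of 0.717 ± 0.0459 (SD, n = 3), and its values overlapped those of Prph. Of 6 muscle markers, 0 had a mean FPKM of at least 1, and Myod1 and Myog had 0 fragments. Des, the muscle filament gene, is in neither that list nor the members, and its mean was 1.06 ± 0.336 FPKM (SD, n = 3).

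Epithelial markers beside the keratins were low as well, whereas desmosome genes ranged from 0 to 36.4 FPKM. Among all genes listed, 23.2% had a mean FPKM of at least 1. Of 10 epithelial markers, 0 had a mean FPKM of at least 1, and the highest was Cdh1, the gene of E-cadherin, at 0.442 ± 0.0766 FPKM (SD, n = 3). Epcam, Cldn3, Esrp1 and Ovol1 had 0 fragments. The summed level of the 10 markers lay between 0.915 and 1.03 FPKM in the 3 libraries. Desmosomes anchor keratin filaments at cell contacts, and of 11 desmosome genes 3 passed an FPKM of 1. These were Pkp4 at 36.4 ± 0.589 FPKM, Jup at 25.1 ± 1.199 FPKM and Pkp2 at 4.31 ± 0.319 FPKM (SD, n = 3 each). Jup encodes plakoglobin, which is also part of adherens junctions. Dsp, whose product desmoplakin binds the keratins, had 7 fragments in all, and Dsg2, Dsc2 and Perp had 0. The part of other cells in the low keratin levels was not tested.

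**Figure D4:**
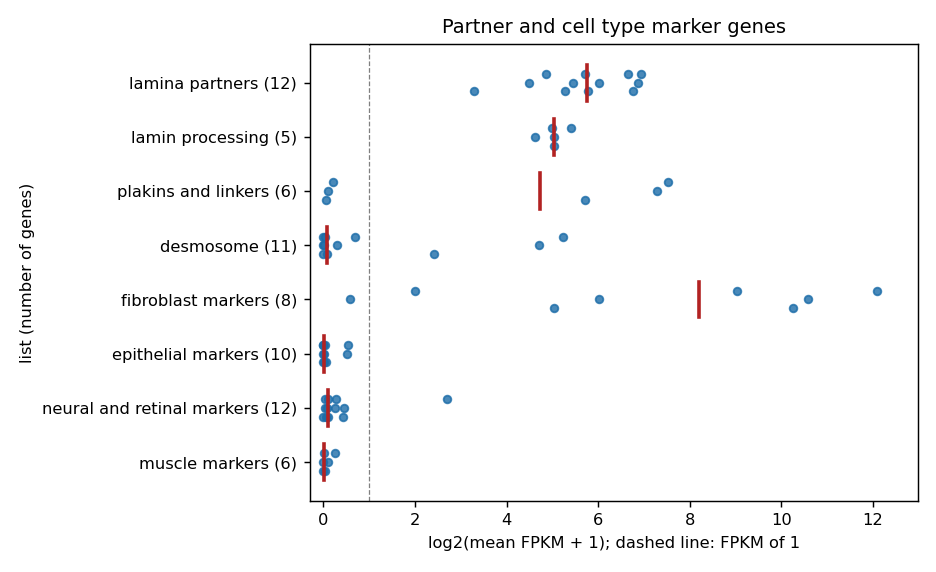
Mean FPKM over 3 libraries, as log2(FPKM + 1), of the genes of each partner and marker list (blue points), with the list median in red and an FPKM of 1 as a dashed line. The lamina partners and lamin processing genes lie right of the dashed line, whereas the 10 epithelial and 6 muscle markers lie left of it.

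The spread between libraries was compared with counting error. The fragments of each gene were compared over the 3 libraries with a chi-square test, adjusted by Benjamini-Hochberg over the 16427 genes with at least 10 fragments. It called 1.67% of these genes and 0 of the 14 members tested. With at least 100 fragments required, it called 2.27% of 11500 genes and 0 of 11 members. Without adjustment, 2 of the 14 members had a p below 0.05. These were Lmna, with p = 0.00765 and an adjusted p = 0.2498 by the chi-square test, and Nes, with p = 0.0247 and an adjusted p = 0.456 by the same test. Lmna was lowest in library 3, at 97.7% of its mean, and Nes was highest in library 2, at 110.7% of its mean. Such a test compares these libraries and not conditions. The coefficient of variation was 0.940% for Vim, 2.001% for Lmna, 3.47% for Krt14, 12.5% for Krt84 and 37.8% for Prph. Counting error alone gave 0.563%, 0.909%, 7.71%, 10.5% and 27.4% for these genes.

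**Figure D5:**
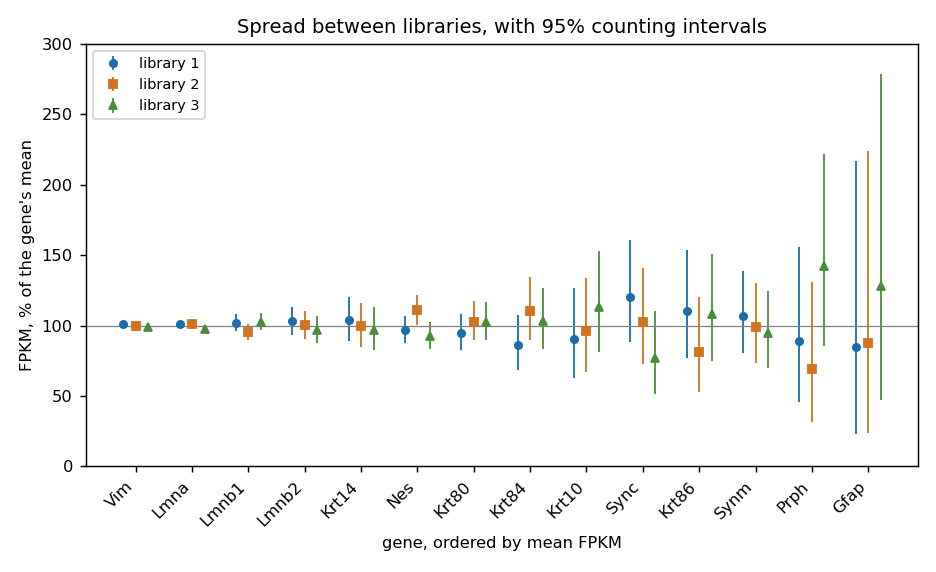
FPKM in each of the 3 libraries of the 14 members with at least 10 fragments in all, as a percentage of the mean of the gene, with exact Clopper-Pearson 95% counting intervals as bars. Of the 42 intervals, 40 hold 100%, and those of Lmna in library 3 and of Nes in library 2 do not.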

How the data were processed

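UMI-RNAseq was measured in 3 libraries of NIH3T3 cells. The authors kept reads with a UMI using UMI-tools 1.0.0, mapped them with HISAT2 2.0.4, removed copies with the same location and UMI, counted per gene with HTSeq 0.6.1 and deposited FPKM, 1 column per library. DESeq 1.10.1 is also named in the submitters' processing notes. The build and gene annotation behind the counts are not given in the sources used here. Of the value columns, 0 stayed out of use.

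No count model was fitted to the FPKM values. Using pandas 2.3.3 and numpy 2.4.6 under Python 3.11.15, fragments were recovered as FPKM times the rounded mean isoform length of GENCODE M21 (GRCm38) times the library total, where the total came from genes with 1 isoform. They were whole within 0.0001 fragments, or within 0.0001 per 1000 fragments for larger values, for 99.0% of the 26193 genes with a fragment, and for 30 of the 30 members with a fragment. The recovery was also run on simulated fragments with the same rounded lengths, so it could not show an error in those lengths. The chi-square test was run on simulated fragments that held counting error alone, apart from genes raised on purpose. That run does not cover other variation between libraries. Library totals were 13959723 to 14423209 fragments. Shared sequence is the percentage of the distinct 75-nt words of a gene, on either strand, that occur in transcripts of another gene. Intervals came from scipy 1.17.1 and figures from matplotlib 3.10.9.

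The genes named are the 13 members that are no keratins, keratins that reached a mean of 1 FPKM, and the highest and lowest gene of each partner list. The simple epithelial keratins, keratins named as partners, neighbours or promoter examples, Tubb3, Fn1, Cdh1 and other list genes were named after their values were seen. The members and lists were chosen with earlier results of these data known. The alternatives were leaving out each replicate, TPM, median-of-ratios scaling, the median, a pseudocount of 1, limits on FPKM, fragments not divided by length, and other members. The longest isoform, a sum without Krt14 and the ratio of type II to type I keratins, with and without Krt86, were added later.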

Additional observations from a re-analysis of the deposited data

How the results depend on the processing

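The levels, ratios and counts were recomputed under 17 alternative settings, each applied to the results it bears on, which gave 79 values. Of these, 64 stayed within the SD of the libraries, kept the sign of a log2 ratio or, for a count, stayed within 1.5 times, and 2 changed sign. Part of this tally was fixed in advance. With 3 libraries, leaving out a replicate or taking the median cannot move a level by more than the SD. Adding the lettered keratins, which had 0 fragments, cannot change the keratin sum. For a log2 ratio far from 0, keeping the sign says little about its size. Both were the log2 ratio of type II to type I keratins, added later, at 0.14 as reported, -0.12 with the longest isoform and -0.0017 without Krt86. Rescaling to 1000000 per library (TPM) gave 2157 for Vim, 752.5 for the lamina, 32.4 for the keratins, 10.6 for the neural filaments and 2.79 for Sync and Synm. The longest annotated isoform, added later, gave 757.6, 251.0, 16.2, 5.39 and 1.60 FPKM for the same groups. Without Krt14, also added later, the keratin sum was 14.0 FPKM. With genes below a mean FPKM of 1 left out, the neural filament sum was 6.49 FPKM, the level of Nes. With an FPKM above 0 as the limit, 18 keratins passed in place of 5. Without a single replicate, 5 keratins passed each time, the keratin sum lay between 22.2 and 22.7 FPKM, and the log2 ratio of Vim plus lamina to keratins plus neural filaments lay between 6.05 and 6.10. With at least 100 fragments required, the chi-square test called 261 genes in place of 274, and 0 of 11 members. The log2 ratio of Krt18 to Krt8 was not run, because Krt18 had 0 fragments. No paired analysis was possible because the 3 libraries share a condition. Depth limits the statements on genes with a few fragments, which include 13 keratins and the neurofilament genes.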

Other observations

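Of 7 filament genes outside the member rule, 1 had a mean FPKM of at least 1. This was Des, which encodes the muscle filament protein desmin, with 0.895, 0.832 and 1.44 FPKM in libraries 1 to 3 and a mean of 1.06 ± 0.336 FPKM (SD, n = 3). Library 3 was the highest, and only there did Des exceed 1. Bfsp1, a gene of the beaded filaments of the lens, had 0.506 ± 0.0820 FPKM (SD, n = 3), and its partner Bfsp2 had 1 fragment in all. The lettered keratins Krt6a, Krt6b, Krt33a and Krt33b had 0 fragments.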
